A study of Mus musculus with 12 samples.

Results

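The 10 genes described here encode proteins that digest dietary fat, carry it into the enterocyte and send it out again as chylomicrons. By role they are the lipase Pnliprp2, the surface receptors Cd36 and Scarb1, the fatty acid binding proteins Fabp1 and Fabp2, the lipid transfer protein Mttp, and the apolipoproteins Apob, Apoa1, Apoa4 and Apoc3. Every probe annotated to them was taken, which gave 14 of the 45281 probes on the array. They make up 10 of the 19057 genes that had a probe naming a single gene.

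Lipases in the gut lumen split the triglyceride of milk and food into fatty acids and monoglyceride, which enterocytes absorb and rebuild into triglyceride. The microsomal triglyceride transfer protein loads this fat onto apolipoprotein B, and the resulting chylomicron, which also bears other apolipoproteins, leaves through the lymph. Most of this absorption takes place in the upper small intestine, whereas the terminal ileum is best known for taking back bile acids.

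The data are 12 bead arrays (MouseWG-6 v2.0), 3 for each of normoxia ileum, hyperoxia ileum, normoxia lung and hyperoxia lung, from pups labelled C57BL/6 and killed at 14 days of age. Normoxia pups breathed a fraction of inspired oxygen (FiO2) of 21% and hyperoxia pups one of 85%, in both cases from day 3 to day 14 of life. Pups born together were pooled, shared between dams and assigned to an exposure by litter, and no source used here ties an array to a litter or tells whether arrays of a group came from separate animals. P-values therefore describe the spread between these samples alone, which may be technical. The labels name the right lung and a short piece of terminal ileum, while the methods name the left lower lobe.

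On 6 of the 12 arrays the tissue field and the source name disagreed, and the tissue field was followed. All 12 arrays bore it out, since the mean log2 signal of 10 ileum markers was 9.97 to 11.04 on ileum arrays and 5.16 to 5.32 on lung arrays. That of 10 lung markers was 12.94 to 13.22 on lung arrays and 4.94 to 5.15 on ileum arrays. Slc10a2, the ileal bile acid transporter, was the ileum marker detected on no array. Each array detected between 19292 and 20839 probes. In the ileum, raw intensity averaged 464 to 481 with normoxia but 313 to 427 with hyperoxia, and in the lung 422 to 637 over both exposures.

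Levels are given as log2 of the background-corrected, quantile-normalized signal. A probe counted as detected on an array at a detection p-value under 0.05, and the dimmest detected signals lay between 5.13 and 5.31. A gene was tested where a probe of it was detected on at least 3 of the 6 arrays compared, and was called at an adjusted p under 0.05 from limma over all tested genes. The level of a probe was never set against that of another probe, because probes differ in brightness for reasons other than RNA amount.

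**Figure D1:**
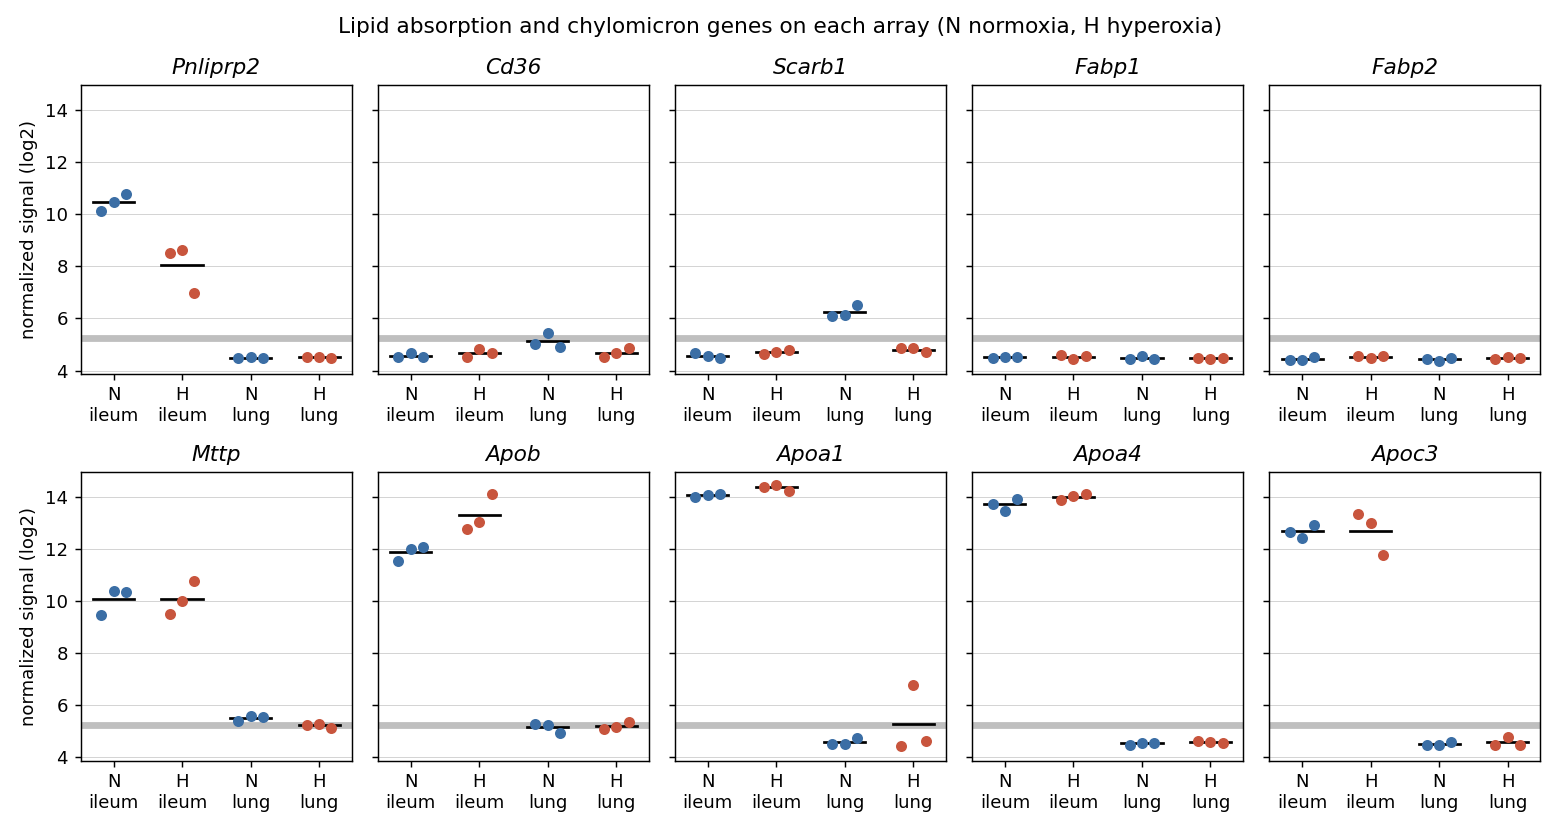
Each panel plots the normalized log2 signal (vertical axis) of 1 gene on 12 arrays, with 3 points and their mean (bar) for normoxia (N, blue) and hyperoxia (H, red) in ileum and lung; the brightest probe is shown and the grey band, from 5.13 to 5.31, holds the dimmest detected signals. Pnliprp2 is lower and Apob higher on all hyperoxia ileum arrays, Scarb1 is above the band only in normoxia lung, and Fabp1 and Fabp2 stay below it everywhere.

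The chylomicron genes and Pnliprp2 were ileal in these pups, and the receptor Scarb1 was detected only in normoxia lung, by a single probe. Between normoxia ileum and normoxia lung, 7 of the 10 genes were tested, of which 6 were higher in the ileum and 1 was lower. Over all genes tested in that comparison 56.9% were called and 26.6% were called higher in the ileum. Of the 7, Pnliprp2, Apoa1, Apoa4, Apoc3 and Scarb1 met the detection filter through 1 tissue alone and so had to differ, which leaves the count without weight of its own. Apoa1, the main protein of high density lipoprotein, had 14.00, 14.07 and 14.10 in normoxia ileum and was detected on no normoxia lung array, so its level was at least 456-fold higher in the ileum (adjusted p = 2.59e-10). Apoa4, a chylomicron protein linked to satiety, was at least 355-fold higher on its brightest probe (adjusted p = 1.20e-14), and Apoc3, an inhibitor of lipoprotein lipase, at least 174-fold (adjusted p = 2.93e-11). Neither was detected on any lung array.

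Apob and Mttp, by contrast, lay close to the detection limit in the lung. Apob was at 5.29, 5.23 and 4.93 in normoxia lung, where 2 of 3 arrays detected it, and the ileum was higher by 6.71 ± 0.28 (SE) on the log2 scale (105-fold, adjusted p = 9.62e-11). Mttp was detected on all 3 normoxia lung arrays at 5.38, 5.59 and 5.55, and the ileum was higher by 4.55 ± 0.29 (SE, 23.4-fold, adjusted p = 1.04e-08). Pnliprp2 was at least 37.3-fold higher in the ileum (adjusted p = 2.07e-09), with no lung array detecting either of its probes. Scarb1 went the other way and was at least 1.97-fold lower in the ileum (adjusted p = 4.24e-07). With no background correction all 7 log2 differences were smaller, at 4.88 for Apob and -0.68 for Scarb1, and all were still called. For Pnliprp2, Apoa1, Apoa4, Apoc3 and Scarb1, which met the detection filter through a single tissue, that adds no support.

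Because these genes differ so widely between the tissues, the stretch just before the start site is shown for Apob and Pnliprp2, the members called in opposite directions in the ileum, and for Apoa4. Promoters of 8 of the 10 genes were matched by symbol in RefSeq (GRCm38.p6), without Apoc3 and Scarb1. The 250 bases that precede the start were searched on both strands for TATAAA, for CAAAGNNCA (a form of the element bound by HNF4 factors), for TTTATG (a form of the CDX2 element) and for AGATAA (a form of the GATA element). The windows are chr12:7977427-7977676 on the plus strand for Apob, chr9:46240594-46240843 on the plus strand for Apoa4 and chr19:58759473-58759722 on the plus strand for Pnliprp2. They read 5′ to 3′ with matches in capitals.
Apob: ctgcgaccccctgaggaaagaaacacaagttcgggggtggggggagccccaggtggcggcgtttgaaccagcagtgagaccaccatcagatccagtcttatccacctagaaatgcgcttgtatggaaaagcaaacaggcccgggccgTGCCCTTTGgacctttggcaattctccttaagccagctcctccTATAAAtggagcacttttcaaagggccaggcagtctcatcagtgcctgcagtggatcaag
Apoa4: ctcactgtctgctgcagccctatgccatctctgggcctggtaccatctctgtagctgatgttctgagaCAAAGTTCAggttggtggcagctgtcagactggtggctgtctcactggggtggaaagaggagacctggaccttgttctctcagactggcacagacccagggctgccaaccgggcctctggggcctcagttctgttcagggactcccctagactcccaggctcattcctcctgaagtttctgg
Pnliprp2: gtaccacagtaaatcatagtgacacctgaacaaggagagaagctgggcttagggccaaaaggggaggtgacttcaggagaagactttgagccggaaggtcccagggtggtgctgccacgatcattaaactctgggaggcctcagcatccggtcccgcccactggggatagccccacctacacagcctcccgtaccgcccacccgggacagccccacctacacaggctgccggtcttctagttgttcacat
In Apob, TATAAA lies 60 to 55 bases before the start and CAAAGNNCA lies on the opposite strand, 103 to 95 bases before it. In Apoa4 the CAAAGNNCA match is on the gene's own strand, 182 to 174 bases before the start. No match to these 4 motifs was found in the Pnliprp2 window, and none of the matches overlapped another. Of all 32851 promoter windows 5.49% held CAAAGNNCA and 12.4% held TATAAA, against 3 (Apoa4, Apob and Fabp2) and 2 (Apob and Fabp1) of the 8 searched here. TTTATG was in 10.8% of windows, with Cd36 and Fabp1 among them, and AGATAA in 9.99%, with 0 of the 8. A match is a run of letters and not a measured binding site.

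Within the ileum, hyperoxia went with less Pnliprp2 and more Apob, and the other chylomicron genes were not called. Of the 10 genes 6 were tested, 1 was called higher, 1 was called lower and 4 were not called. Over all genes tested in the ileum 26.8% were called, 12.7% higher and 14.1% lower. The median difference of the 6 genes was 0.16 on the log2 scale, against -0.03 over all genes. In 3 of the 6 the exposure groups did not overlap, as was the case for 40.1% of all genes tested.

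Pnliprp2, pancreatic lipase related protein 2, hydrolyses triglycerides and galactolipids and is known for digesting milk fat in suckling rodents. Its signal was 10.13, 10.45 and 10.76 on the normoxia ileum arrays and 8.52, 8.61 and 6.99 on the hyperoxia ileum arrays. The groups did not overlap, and hyperoxia replicate 3 was the lowest by a wide margin. The level fell by 2.41 ± 0.33 (SE, n = 3 per group) on the log2 scale, with a 95% interval of -3.11 to -1.70 (5.30-fold, adjusted p = 0.000336). With each tissue fitted alone the SE was 0.40 (adjusted p = 0.00967).

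The other Pnliprp2 probe moved the same way. It read 8.22, 8.95 and 9.28 in normoxia and 6.50, 7.24 and 6.21 in hyperoxia, again without overlap, and fell by 2.17 ± 0.27 (SE, adjusted p = 0.000192 over all probes). Without hyperoxia ileum replicate 3 the brighter probe still fell by 1.88 ± 0.17 (SE, adjusted p = 3.02e-05). Raw intensities, before any correction, were 1211, 1548 and 1890 in normoxia and 410, 309 and 195 in hyperoxia, so the groups were apart there too. The study picked Pnliprp2 out as a Paneth cell marker on these same samples, so its fall here is no independent evidence. The paper also reported less Pnliprp2 by qPCR in hyperoxia-exposed mice and by RNA sequencing in hyperoxia-exposed organoids. In a bulk sample, fewer cells of a type and less RNA in each cell cannot be told apart.

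Markers of several epithelial cell types were lower on the same arrays. Of 5 Paneth cell markers, 4 were called lower and 0 higher (Mmp7 by 1.46, Ang4 by 1.46, Itln1 by 1.10 and Lyz1 by 0.94 on the log2 scale), and the summed signal of the list was 59700 to 62000 in normoxia and 36600 to 48600 in hyperoxia. The fifth, the defensin Defa20, had a difference of -0.04 ± 0.15 (SE, adjusted p = 0.865). Defa20, at 14.40 to 14.69 on the ileum arrays, and Lyz1, at 14.59 to 14.61 in normoxia, lay near the top of the signal range, and whether it was still in proportion to RNA was not tested. All 3 tested markers of the distal ileum, Fabp6, Slc51b and Slc51a, which bind or export bile acids, were lower, with a summed signal of 29300 to 34300 in normoxia and 11600 to 17600 in hyperoxia. Of 7 enterocyte and epithelial markers 3 were lower (Krt20, Krt19 and Vil1) and 4 were not called, among them Cdh17 at 0.27, Epcam at 0.05 and Cdh1 at -0.10. Their part in the fall of Pnliprp2 was not tested.

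Pancreatic acinar cells are the main source of its relatives, and their markers were mostly dim. Of 8 acinar markers 5 were detected on no normoxia ileum array and 4 on no hyperoxia ileum array, among them Cpa1, Cela2a, Cela3b and Prss2 in both. Cela1, at 7.29 to 9.12, and Amy2a5, at 5.45 to 7.02, were detected on all 6 ileum arrays. The summed signal of the 8 markers was 304 to 373 in normoxia and 329 to 678 in hyperoxia, and 0 of the 3 tested were called. Colipase, Clps, the cofactor that lets pancreatic lipase work in the presence of bile salts, was nonetheless bright in the ileum. It read 11.57, 11.48 and 11.33 in normoxia and 10.93, 10.13 and 8.99 in hyperoxia, with no overlap, and fell by 1.44 ± 0.34 (SE, adjusted p = 0.00837). No lung array detected it.

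Apob, the structural protein that each chylomicron particle is built around, was the member that rose. Its signal was 11.51, 12.00 and 12.07 in normoxia ileum and 12.76, 13.04 and 14.08 in hyperoxia ileum. Every hyperoxia array lay above every normoxia array, with replicate 3 highest. The rise was 1.43 ± 0.28 (SE, n = 3 per group) on the log2 scale, with a 95% interval of 0.83 to 2.03 (2.70-fold, adjusted p = 0.00353).

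The raw intensities of Apob did not overlap either, at 3120, 4414 and 4694 in normoxia and 6584, 5458 and 12075 in hyperoxia. Without hyperoxia ileum replicate 3 the rise was 1.04 ± 0.20 (SE, adjusted p = 0.00474). Over all 24 alternatives it ranged from 1.04 to 1.70 with adjusted p from 0.000187 to 0.0281. In the lung Apob was at 5.29, 5.23 and 4.93 in normoxia and 5.09, 5.17 and 5.37 in hyperoxia, where 3 of 6 arrays detected it. These groups overlapped, and the difference was 0.06 ± 0.28 (SE, 95% interval -0.54 to 0.66, adjusted p = 0.908).

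The fitted exposure effect on Apob was larger in the ileum than in the lung, where its signal lay close to the detection limit. So close to that limit, a change in the lung could have gone unseen. The difference between the tissues was 1.37 ± 0.40 (SE) on the log2 scale, with a 95% interval of 0.52 to 2.22 (adjusted p = 0.0215), where 27.2% of the genes tested for such a difference were called. It was not called with an ordinary linear model (adjusted p = 0.0669), without normoxia lung replicate 1 (0.0536) or without normoxia ileum replicate 1 (0.0501).

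Mttp, which hands triglyceride to apolipoprotein B in the endoplasmic reticulum, was not called in the ileum. It read 9.45, 10.37 and 10.35 in normoxia and 9.51, 9.99 and 10.77 in hyperoxia, so the groups overlapped from end to end. The difference was 0.03 ± 0.29 (SE) with a 95% interval of -0.59 to 0.66 (adjusted p = 0.941), an interval that leaves room for a rise of up to 1.58-fold. In the lung, close to the detection limit, Mttp was at 5.38, 5.59 and 5.55 in normoxia and 5.26, 5.29 and 5.12 in hyperoxia. These groups did not overlap, but the difference of -0.29 ± 0.29 (SE, adjusted p = 0.549) was not called. With each tissue fitted alone the SE in the lung was 0.13, and Mttp was still not called (adjusted p = 0.149). The tissues differed in effect by 0.32 ± 0.41 (SE, adjusted p = 0.586).

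Apoa1 was among the brightest probes of the ileum. It read 14.00, 14.07 and 14.10 in normoxia and 14.38, 14.45 and 14.22 in hyperoxia, with 27 to 94 probes brighter on an array. The normalized groups did not overlap, but the difference of 0.29 ± 0.43 (SE, 95% interval -0.64 to 1.22, adjusted p = 0.643) was not called. The shared error took in a lung array described below on which Apoa1 stood apart, and without that array it was 0.29 ± 0.15 (SE, adjusted p = 0.165).

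Before normalization Apoa1 intensities were 18425, 19435 and 19859 in normoxia and 22206, 17821 and 14359 in hyperoxia, and these overlapped. The brightest probe on the ileum arrays read 23482 to 29211, and whether Apoa1 signal was still in proportion to RNA so near the top was not tested.

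Apoa4 had 3 probes, all detected on every ileum array and on no lung array. The brightest read 13.73, 13.45 and 13.91 in normoxia and 13.87, 14.01 and 14.10 in hyperoxia, which overlapped slightly. Its difference was 0.30 ± 0.15 (SE, 95% interval -0.03 to 0.63, adjusted p = 0.167). Those of the others were 0.34 and 0.42, with normalized groups that did not overlap. Before normalization the groups overlapped on all 3 probes. On the brightest, raw intensities were 15361, 12907 and 18075 in normoxia and 15325, 11882 and 12770 in hyperoxia. None of the 3 was called. With arrays weighted by their fit, the gene was called at 0.43 (adjusted p = 0.0118).

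Apoc3, which slows the clearance of triglyceride from plasma, had the widest spread of the 4 apolipoproteins on the hyperoxia ileum arrays (SD 0.82, n = 3). It read 12.66, 12.43 and 12.91 in normoxia and 13.32, 13.00 and 11.77 in hyperoxia. On replicates 1 and 2 it was above every normoxia array and on replicate 3 below every one. The difference was 0.03 ± 0.30 (SE, 95% interval -0.62 to 0.68, adjusted p = 0.950). Without replicate 3 it was 0.49 ± 0.18 (SE, adjusted p = 0.0740), and with array weights 0.46 (adjusted p = 0.0378). Apoa1, Apoc3 and Apoa4 are neighbours in that order on chromosome 9, followed by Apoa5.

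**Figure D2:**
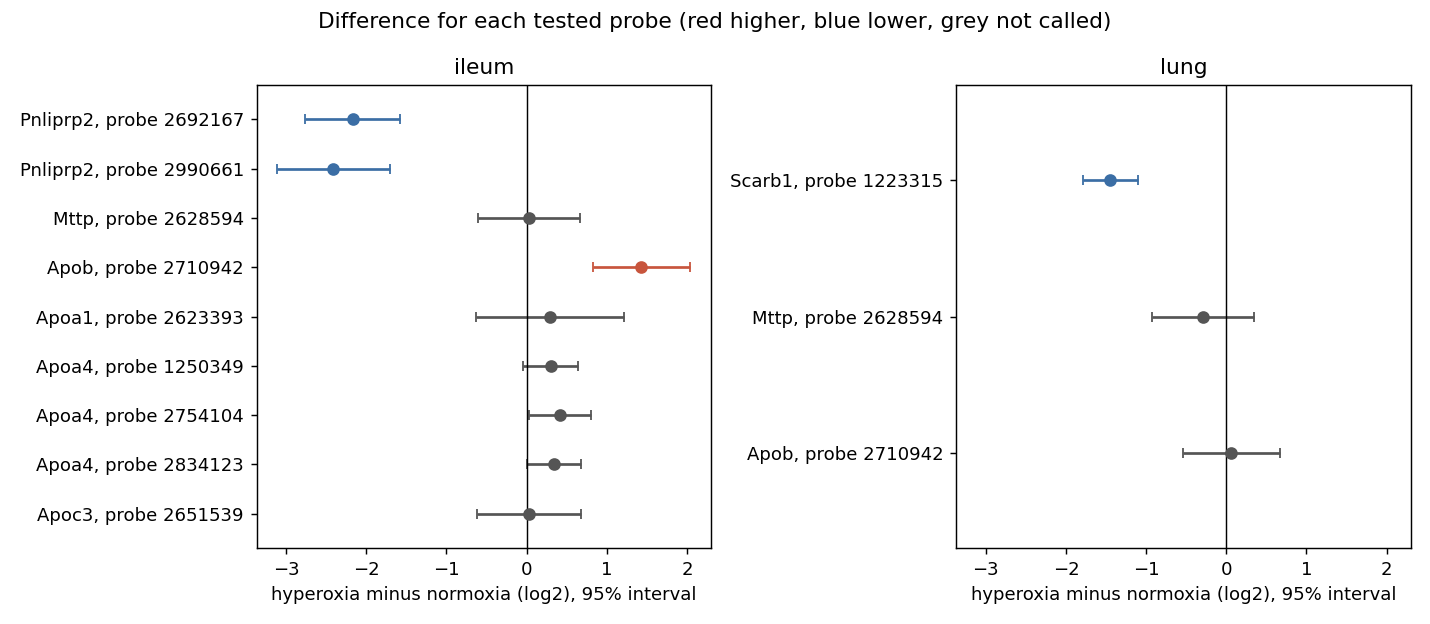
Points give the log2 difference of hyperoxia minus normoxia (horizontal axis) for each tested probe, with its 95% interval, in the ileum (left) and the lung (right), 3 arrays per group. Both Pnliprp2 probes (-2.17 and -2.41) lie below 0 and Apob (1.43) above it in the ileum, and Scarb1 (-1.45) lies below 0 in the lung.

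Hyperoxia ileum replicate 3 was at the edge of its group for most of these genes, though not always on the same side. Relative to the mean of its group it stood at -1.05 for Pnliprp2, -0.93 for Apoc3 and -0.13 for Apoa1, and at 0.78 for Apob, 0.68 for Mttp and 0.11 for Apoa4. It was also the lowest array for Fabp6 (9.54 against 11.28 and 11.66), Ang4 (9.41 against 11.48 and 10.71) and Slc51b (11.37 against 12.11 and 12.38). The same held for Mmp7, Itln1, Defa20 and Krt19. Replicate 1 was instead the lowest for Lyz1 (13.47), Slc51a (12.85), Krt20 (9.75), Vil1, Krt8, Epcam and Cdh17, and replicate 2 for Cdh1. The calls of Pnliprp2 and Apob held without replicate 3, as given above.

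**Figure D3:**
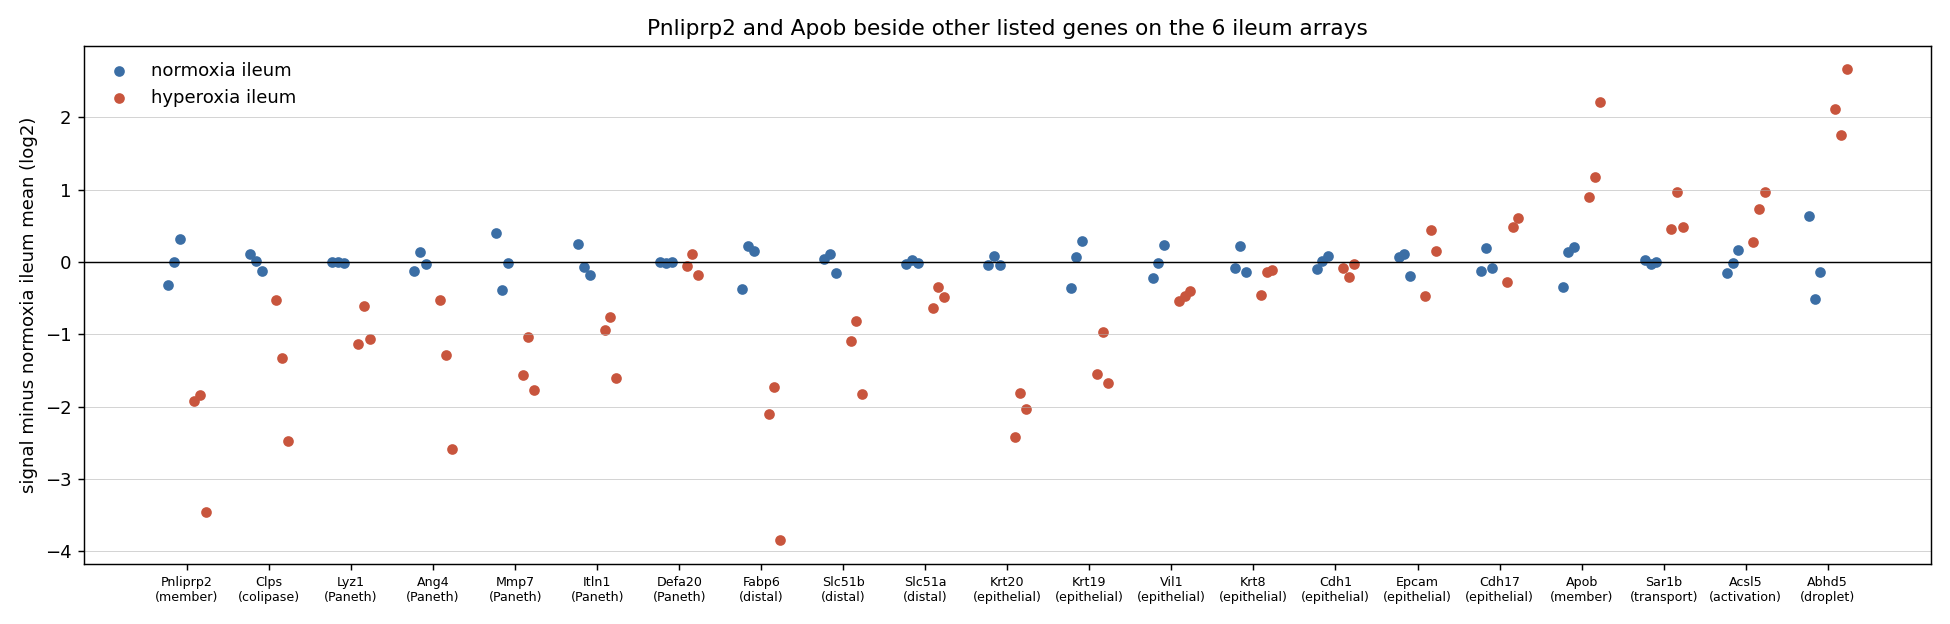
Each point is 1 ileum array, plotted as its log2 signal minus the normoxia ileum mean of that gene (vertical axis), for normoxia (blue) and hyperoxia (red) with replicates 1 to 3 from left to right. Every tested Paneth, distal ileum and epithelial marker is shown, of which Defa20, Krt8, Cdh1, Epcam and Cdh17 overlap between the exposures and the others lie lower in hyperoxia, as do Pnliprp2 and Clps. Sar1b, Acsl5 and Abhd5 were picked because they were called higher, as Apob was. In the lists of lipid handling 16 genes were called lower in the ileum and 6 higher.

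The fatty acid binding proteins and the fatty acid receptor gave no usable signal. Fabp1, the liver type binding protein, and Fabp2, the intestinal type, were each read by 1 probe that was detected on 0 of 12 arrays, with signals of 4.44 to 4.61 and 4.38 to 4.56. Cd36, which takes up long chain fatty acids and is also made by capillary endothelium and macrophages, was detected on 1 of 12, a normoxia lung array at 5.45 (replicate 2). Its other signals ran from 4.52 to 5.03. Whether these probes can read their transcripts was not tested, so nothing about the genes follows from them, and none entered a test.

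In the lung the member called was Scarb1, the receptor that takes cholesterol esters from high density lipoprotein. Of the 10 genes 3 were tested there, 1 was called lower and 2 were not called, where 20.5% of all lung genes tested were called and 10.6% were called lower. Scarb1 read 6.11, 6.15 and 6.51 in normoxia and 4.88, 4.85 and 4.70 in hyperoxia. All 3 normoxia arrays detected it and no hyperoxia array did, so it met the detection filter only through normoxia, the group in which it was high. That leaves its call, and the count of 1 called lower, without weight of their own.

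The fitted difference in Scarb1 was -1.45 ± 0.15 (SE, n = 3 per group, adjusted p = 2.12e-05), and set against the dimmest detectable signal it was at least 2.02-fold lower in hyperoxia. Without background correction the log2 difference was -0.54 ± 0.09 (SE, adjusted p = 0.000897). Groups did not overlap in 2 of the 3 tested members, Scarb1 and Mttp, or in 43.3% of all lung genes. The other Scarb1 probe was detected on 0 of 12 arrays, and in the ileum neither was detected, with signals of 4.47 to 5.06.

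Markers of cell types known to express Scarb1 also differed in the lung. Of 8 capillary endothelium markers 6 were lower and 2 were not called, with a summed signal of 21500 to 24200 in normoxia and 9670 to 13800 in hyperoxia. Of 7 macrophage markers 4 were higher and 3 were not called, with a summed signal of 17000 to 22700 in normoxia and 21100 to 25400 in hyperoxia. All markers of both lists were detected in both groups, and their part in the fall of Scarb1 was not tested.

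Apoa1 appeared on a single lung array. It read 4.51, 4.50 and 4.75 in normoxia lung and 4.45, 6.79 and 4.61 in hyperoxia lung, and only hyperoxia replicate 2 detected it. That array also held the highest lung signal for Ahsg, Ttr, Serpina1b and Fga among 8 hepatocyte markers, while Serpina1a was highest on hyperoxia replicate 3 at 5.79. Ahsg read 7.73 there and at most 4.89 on the others, Ttr 7.51 and at most 4.51, and Fga 7.74 and at most 4.78, whereas Alb, Fgb and Tat were detected on no lung array.

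The summed signal of the hepatocyte list was 63.5 to 70.7 in normoxia lung and 66.2 to 791 in hyperoxia lung. Apoa2, another protein of high density lipoprotein, read 7.68 on that array and at most 5.33 elsewhere in the lung. So did genes of other tissues, with skeletal muscle actin Acta1 at 11.63 against at most 4.90 and the keratin Krt13 at 10.36 against at most 4.68. In all 26 genes there exceeded every other lung array by more than 2 on the log2 scale, compared with 14 on hyperoxia lung replicate 3, 2 on normoxia lung replicate 3 and 0 on the others. The part of any of these in the Apoa1 signal was not tested. Without this array the fitted Scarb1 difference was -1.47 ± 0.18 (SE, adjusted p = 0.000143).

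**Figure D4:**
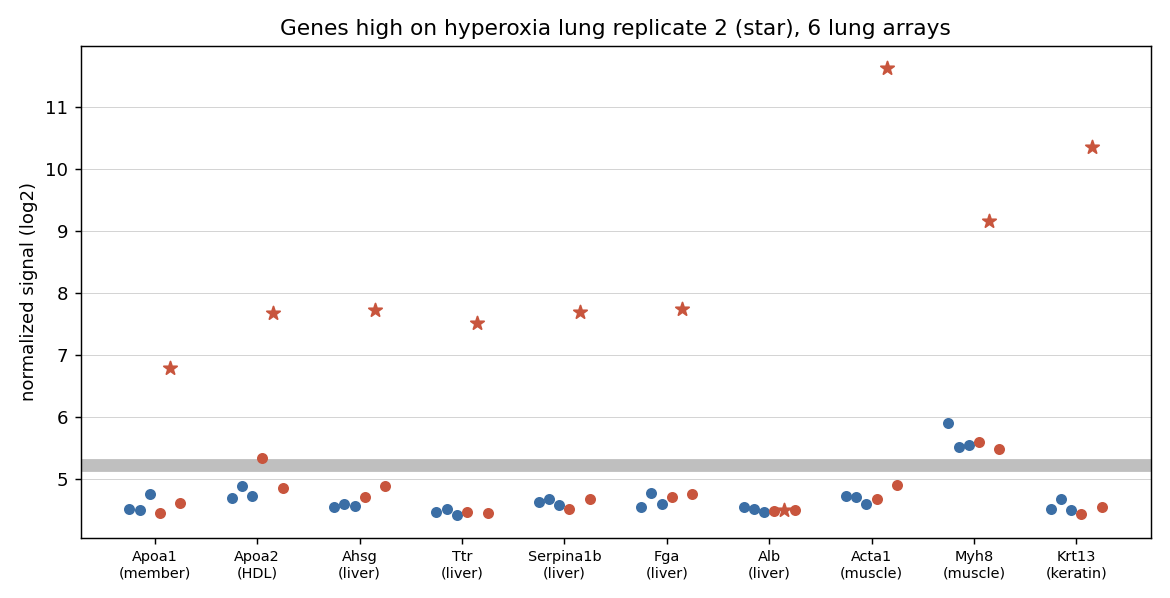
Points give the normalized log2 signal (vertical axis) on 3 normoxia (blue) and 3 hyperoxia (red) lung arrays for Apoa1, Apoa2 and genes known from liver, muscle or squamous epithelium; stars mark hyperoxia lung replicate 2 and the grey band, from 5.13 to 5.31, the dimmest detected signals. Apoa1 (6.79), Ahsg (7.73), Acta1 (11.63) and Krt13 (10.36) stand out on that array, and Alb does not.

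The wider pathway was followed with 9 lists of other genes of lipid handling, 75 of which had a probe. In the ileum 65 were tested, 6 were higher and 16 were lower, so that 33.8% were called against 26.8% of all ileum genes, and their median difference was -0.21 on the log2 scale against -0.03. In the lung 54 were tested, 2 were higher and 4 were lower, so that 11.1% were called against 20.5% of all lung genes, with a median of 0.09 against 0.02. Neither share was tested against that of all genes. The ileum share counts Pltp, which met the detection filter there only through normoxia, the group in which it was high.

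Upstream of chylomicron assembly, the enzymes that rebuild triglyceride in the enterocyte were partly lower in hyperoxia ileum. Of 8 tested, 3 fell, 1 rose and 4 were not called, with a median of -0.44. Mogat2, the acyltransferase of the monoglyceride route, fell by 0.80 ± 0.21 (SE, adjusted p = 0.0133) and Dgat1, which adds the last fatty acid, fell by 0.80 ± 0.26 (SE, adjusted p = 0.0353). Agpat2, an enzyme of the glycerol phosphate route, fell by 1.56 ± 0.23 (SE, adjusted p = 0.000734). Lpin2, a phosphatidate phosphatase, rose by 0.63 ± 0.17 (SE, adjusted p = 0.0183). Dgat2 had a difference of -0.11 ± 0.36 (SE) and was not called.

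Among genes of chylomicron assembly and secretion, 1 rose, 2 fell and 6 were not called of 9 tested. Sar1b, the GTPase that coats vesicles carrying chylomicrons out of the endoplasmic reticulum, read 12.27, 12.21 and 12.24 in normoxia and 12.70, 13.21 and 12.72 in hyperoxia and rose by 0.64 ± 0.18 (SE, adjusted p = 0.0186). Tm6sf2 and Cideb, which help to load lipid onto particles that hold apolipoprotein B, fell by 1.18 ± 0.27 and 1.04 ± 0.24 (SE, adjusted p = 0.00828 and 0.00832). Apobec1, the enzyme that edits Apob RNA to its short intestinal form, had a difference of 0.21 ± 0.19 (SE, adjusted p = 0.449).

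In fatty acid uptake and activation 1 of 7 tested genes rose and 6 were not called. It was Acsl5, an acyl-CoA synthetase of enterocytes, at 13.15, 13.29 and 13.48 in normoxia and 13.59, 14.04 and 14.27 in hyperoxia (0.66 ± 0.18, SE, adjusted p = 0.0196). The cholesterol transporters Npc1l1, Abcg5 and Abcg8 had differences of 0.01, 0.47 and 0.34 and 0 of the 3 were called. Of the luminal lipases 2 were tested, and Pnliprp1 at -0.50 ± 0.24 (SE, adjusted p = 0.132) was not called beside Clps.

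Genes of stored fat moved in both directions in the ileum, where 2 rose, 4 were not called and 2 fell of 8 tested. Abhd5, the activator of triglyceride lipase in lipid droplets, read 7.87, 6.72 and 7.09 in normoxia and 9.35, 8.98 and 9.89 in hyperoxia and rose by 2.18 ± 0.27 (SE, adjusted p = 0.000158). Pnpla2, the lipase it activates, fell by 0.94 ± 0.17 (SE, adjusted p = 0.00220), while Lipa, the lysosomal lipase, rose by 0.70 ± 0.19 (SE, adjusted p = 0.0186). Lipe fell by 0.46 ± 0.16 (SE) at an adjusted p of 0.0499. In fatty acid oxidation Hadhb rose by 0.65 and Slc25a20 fell by 0.50 on the log2 scale, with 7 of 9 tested genes not called.

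Of 12 tested transcriptional regulators of these pathways 4 fell and 0 rose in the ileum. They were Creb3l3 (0.82 lower on the log2 scale), Nr1h3 (0.67 lower), Esrra (0.55 lower) and Cdx2 (0.52 lower), with adjusted p from 0.00543 to 0.0358. Hnf4a, an HNF4 factor, the type for which CAAAGNNCA was searched above, had a difference of -0.29 ± 0.20 (SE, adjusted p = 0.281) and Hnf4g one of 0.11 ± 0.35 (SE, adjusted p = 0.841). Of 7 tested genes of other apolipoproteins and plasma lipolysis, Pltp, Gpihbp1 and Apoe fell by 1.01, 1.34 and 0.88 and 4 were not called. Pltp was detected on no hyperoxia ileum array, which makes it at least 1.67-fold lower. It met the detection filter only through normoxia, the group in which it was high, so its call has no weight of its own.

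In the lung the called genes of these lists were mostly those of plasma lipolysis and of lipid droplets. Gpihbp1, which anchors lipoprotein lipase to capillaries and is also 1 of the endothelium markers, fell by 2.47 ± 0.32 (SE, adjusted p = 0.000106), and Pltp fell by 0.95 ± 0.17 (SE, adjusted p = 0.00143). Lpl, the lipase itself, rose by 0.71 ± 0.20 (SE, adjusted p = 0.0224) and the droplet protein Plin2 rose by 0.95 ± 0.19 (SE, adjusted p = 0.00320). The secreted phospholipase Pla2g1b fell by 0.97 ± 0.16 (SE, adjusted p = 0.000529). Cidec fell by 1.15 ± 0.32 (SE, adjusted p = 0.0220) and was detected on 4 of 6 lung arrays. Its groups overlapped, at 5.96 to 6.81 in normoxia and 4.58 to 6.06 in hyperoxia. None of the 7 tested genes of triglyceride synthesis or of the 7 of chylomicron assembly was called there by limma, with Apobec1 nearest at 0.56 ± 0.19 (SE, adjusted p = 0.0571).

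**Figure D5:**
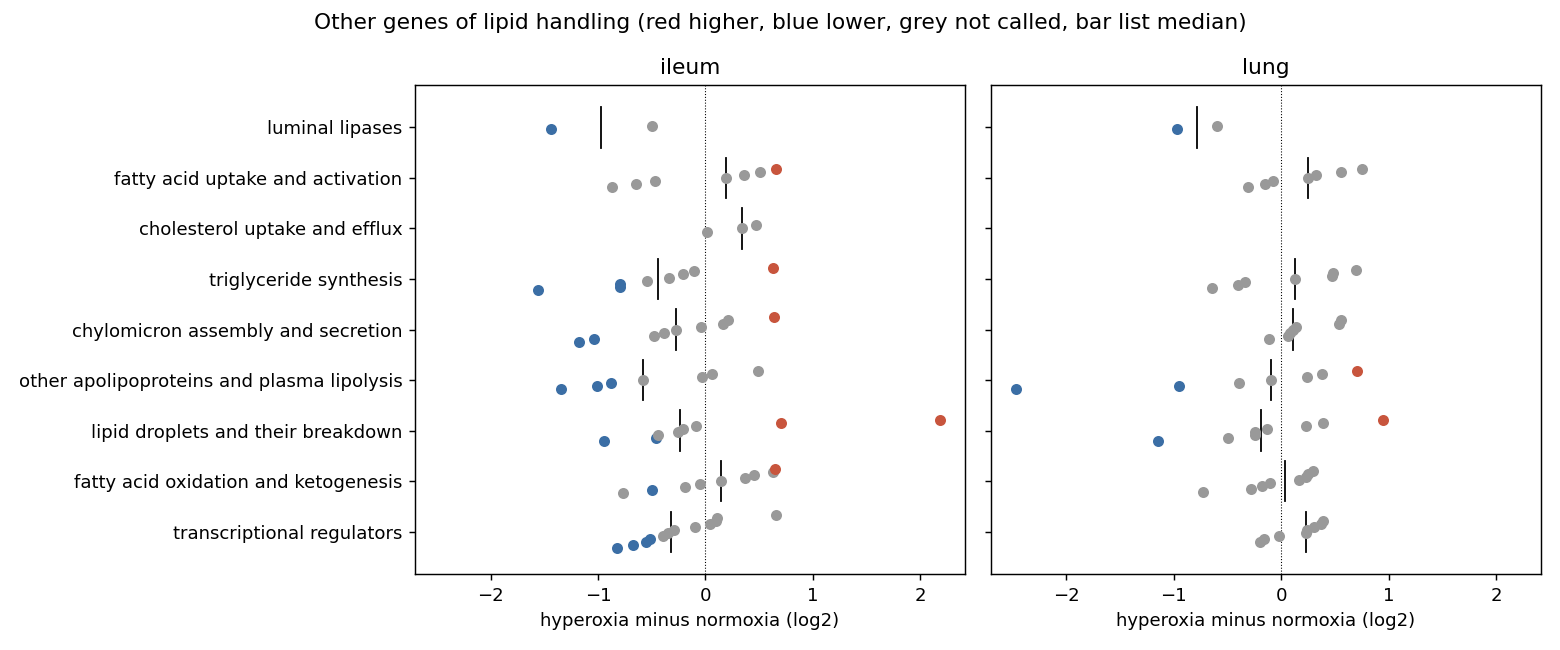
Each point is 1 tested gene, plotted by its log2 difference of hyperoxia minus normoxia (horizontal axis) in its list (vertical axis), in the ileum (left) and the lung (right), with a bar at the list median. In the ileum 16 genes were called lower (blue) and 6 higher (red), with Abhd5 farthest to the right at 2.18, and in the lung 4 lower and 2 higher, with Gpihbp1 farthest to the left at -2.47.

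By likeness of signal over 12 arrays, which are 2 tissues of 2 exposures and so mostly carry the tissue difference, Pnliprp2 was closest to Tmem130, Sult2b1 and Fabp6 (Pearson r of 0.9963, 0.9958 and 0.9944). Apob was closest to Dab1, Cyp2c67 and Abcc2 (0.9992, 0.9987 and 0.9982). Mttp was closest to Slc28a2, Olfm4 and Adgrg7 (0.9991, 0.9970 and 0.9965), and Apoc3 to Prap1, Rbp2 and Tac1 (0.9991, 0.9988 and 0.9986). Fabp6, the ileal bile acid binding protein, read 13.01, 13.61 and 13.54 in normoxia ileum and 11.28, 11.66 and 9.54 in hyperoxia ileum, lowest on the array where Pnliprp2 was lowest.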

How the data were processed

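RNA of lung and ileum was hybridised to 12 Illumina arrays in 4 groups of 3. As deposited, each probe has an intensity, its mean over beads, exported from GenomeStudio 2011.1 (submitters' processing notes) without normalization. A detection p-value per probe was deposited beside it. A second deposited table holds normalized intensity values and served only as an alternative. The sources used here do not state its normalization.

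Intensities were corrected with normexp from the detection p-values, quantile-normalized and log2-transformed with an offset of 16 (neqc, limma 3.58.1, R 4.3.3). Of the probes 34885 name 1 gene in the platform annotation, 18 several and 10378 none, and only the first were used. A probe was tested with detection p under 0.05 on at least 3 of 6 arrays, and a gene took its brightest tested probe. A limma model with 4 group means was fitted over 12 arrays, and p-values were adjusted by Benjamini-Hochberg over all tested genes of a comparison (called under 0.05). All adjusted p-values come from limma. The fit was tested on simulated data. Where a group was detected on no array, the bound sets the other group against the dimmest detected signal of each array. Python 3.11.15 with matplotlib 3.10.9 made the figures.

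Members and gene lists were chosen with earlier results of these data known. All 10 members were named, with at most 4 others per list and tissue, ranked on limma's moderated statistic, and 3 most alike genes for 4 members. Dgat2, Apobec1, Hnf4a, Hnf4g, Apoa2, Acta1 and Krt13 were named after their values were seen. Same-numbered arrays of the exposure groups did not deviate together (r from -0.25 to -0.02), so replicate numbers were not used to pair them. Alternatives were other background, scaling, filter, probe and model choices and leaving out each array. Probe sequences and listed genes without a named probe were not analysed here.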

Additional observations from a re-analysis of the deposited data

Results flagged for a closer look

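The exposure effect on Apob differed between the tissues by 1.37 ± 0.40 (SE) on the log2 scale in the interaction term (adjusted p = 0.0215 from limma), with a rise on 3 of 3 hyperoxia ileum arrays above all normoxia ileum arrays and overlapping groups in the lung, where Apob was detected on 3 of 6 arrays. It was not called with the ordinary linear model (adjusted p = 0.0669), without normoxia lung replicate 1 (0.0536) or without normoxia ileum replicate 1 (0.0501), and was not tested under the stricter detection filter.

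Apoa1 read 6.79 on hyperoxia lung replicate 2, above the 4.50 to 4.75 of the normoxia lung arrays, although the gene was detected on too few lung arrays to be tested there. Genes of liver, muscle and squamous epithelium were high on the same array, and their part in the signal was not tested.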

How the results depend on the processing

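With 24 alternatives in the ileum, Pnliprp2 stayed lower (-2.69 to -1.88) and Apob higher (1.04 to 1.70), each called in all of them. Scarb1 stayed lower and called in the lung (-1.73 to -0.54), but it met the detection filter only through normoxia, the group in which it was high. The count of genes called in the ileum, 2995, was 1465 with each tissue fitted alone, 4673 with array weights and 1435 to 3624 on leaving out an array (1435 without normoxia ileum replicate 3 and 1952 without normoxia ileum replicate 2). In the lung 2297 became 3851 with array weights, and for the difference between tissues 2778 became 4400. With array weights 4 members were called in the ileum in place of 2 (Apoa4 and Apoc3 were added). For the difference between tissues the 1 member called, Apob, became 3 with no detection filter and 0 with the stricter filter, under which it was not tested, and 0 with the ordinary linear model. The range on leaving out an array was 0 to 1, with Apob not called without normoxia lung replicate 1 (1.30) or normoxia ileum replicate 1 (1.20).

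Differences near 0 changed sign without being called. In the ileum, Mttp was -0.07 and Apoc3 -0.08 with 75th percentile scaling and Mttp -0.26 with array weights, and on leaving out an array Mttp ran from -0.31 to 0.33 and Apoc3 from -0.28 to 0.49. In the lung Apob ran from -0.05 to 0.13 on leaving out an array. The difference between tissues of Mttp was -0.01 with array weights and -0.02 to 0.61 on leaving out an array. With the replicate block 2013 genes were called in the ileum, 1803 in the lung and 1972 for the difference, and Pnliprp2 (-2.41), Apob (1.43) and Scarb1 (-1.45) kept their calls. This block was by number within each tissue, which cannot give the comparison of normoxia ileum with normoxia lung. A replicate block by number across tissues, chosen after seeing the data, left all 7 members called between the normoxia tissues (6455 genes in place of 6611). This adds no support for the members that met the detection filter through a single tissue. No bead chip block was run because no column names a chip. Signal close to background limits Mttp and Apob in the lung, Scarb1 in hyperoxia, and Fabp1, Fabp2 and Cd36 throughout. The number of arrays, 3 per group, limits the precision of each value.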
